A study of Mus musculus with 6 samples.

Results

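Transcript levels of 10 genes that are commonly read as the response to fibroblast growth factor (FGF) signalling were described in forelimb bud ectoderm, the epithelium that covers the limb bud, of mouse embryos at E10.5. The genes were the Sprouty genes Spry1, Spry2 and Spry4, the Sprouty-related genes Spred1 and Spred2, the phosphatase gene Dusp6, the receptor-like gene Il17rd, and the ETS factor genes Etv1, Etv4 and Etv5. They were taken by symbol, and all 10 were found among the 49452 genes of the deposited table. Each was at 1 FPKM or more in every library, so all 10 passed the filter on low values. FPKM is the number of fragments scaled to transcript length and to library size, so levels of different genes are compared per length. There were 3 embryos of each genotype, Sp8 null and wild type, and each library held the ectoderm of both forelimbs of 1 embryo. Null embryos came from crosses of mice heterozygous for Sp8-Cre-ERT2, and wild-type embryos from C57BL/6 crosses, so the genotypes came from different crosses. C57BL6J is the background strain given for both. The libraries were made from whole ectoderm, in which fewer cells of a type and less RNA per cell cannot be told apart.

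FGFs bind receptor tyrosine kinases at the cell surface and switch on the RAS-ERK kinase cascade, which turns on its own inhibitors and a small group of ETS transcription factors. Sprouty and Spred proteins dampen signalling between the receptor and RAF, Dusp6 dephosphorylates ERK in the cytoplasm, and Il17rd (also called Sef) acts on the receptor complex and on ERK. Etv1, Etv4 and Etv5 form the PEA3 group of ETS factors, whose transcription and activity rise with ERK signalling. In the limb bud, FGFs made by the apical ectodermal ridge act on the mesenchyme below it, while FGFs of the mesenchyme act back on the ectoderm through Fgfr2. Sp8 belongs to the Sp family of transcription factors, is made in the limb ectoderm and is needed for the ridge.

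The ridge ligand Fgf8 was low in the Sp8 null ectoderm, while the receptor Fgfr2 was present. Sp8 itself was at 0.766, 0.460 and 1.14 FPKM in Sp8 null embryos 1, 2 and 3, and at 8.35, 10.97 and 13.5 FPKM in wild-type embryos 1, 2 and 3, so each library followed its label. Fgf8 reached 32.5 ± 3.10 FPKM in the wild-type embryos, against 0.645 ± 0.447 FPKM in the null embryos (SD, n = 3 each). Fgfr2, the main ectodermal FGF receptor, was at 132 ± 4.66 FPKM in wild type against 153 ± 17.5 FPKM in Sp8 null (SD, n = 3; log2 fold change 0.20, 95% interval -0.0047 to 0.41, limma Benjamini-Hochberg adjusted p = 0.217). With 1 embryo left out the log2 fold change of Fgfr2 lay between 0.12 and 0.27. No total of reads is given, and the depth of the other libraries was 0.847 to 1.03 times that of wild-type embryo 1. All 12 ectoderm markers were above 1 FPKM in at least 1 library, with sums of 874 to 972 FPKM in wild type against 746 to 977 FPKM in the null embryos. Summed limb mesenchyme markers stood at 197 FPKM in Sp8 null embryo 2 against 57.9 to 87.1 FPKM in 4 of the other libraries and 44.9 FPKM in wild-type embryo 2.

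Spry1, Spry4, Etv4, Etv5 and Dusp6 fell in the Sp8 null ectoderm. These 5 of the 10 genes passed the test over all 12133 tested genes (limma, Benjamini-Hochberg adjusted p under 0.05), where 6.83% of all tested genes were called, 5.15% lower and 1.68% higher. The mean level of Spry1 was 30.7% of wild type, that of Etv4 32.0%, that of Etv5 37.2%, that of Spry4 41.0% and that of Dusp6 58.4%. Spred1, Spred2 and Etv1 lay at 80.0%, 77.7% and 75.4% of wild type and did not pass, and Spry2 and Il17rd lay at 89.7% and 96.8%. The groups did not overlap for 8 of the 10 genes, all lower in Sp8 null, where 21.1% of all tested genes did so and 29.8% were apart in either direction. All 10 were lower in mean, as were 61.3% of tested genes. The median log2 fold change of the 10 genes was -0.55, beside -0.06 for all tested genes. Of the calls over all genes 204 were higher and 625 lower, and with median-of-ratios scaling 323 were higher and 544 lower, with the same 5 response genes called. Markers of the apical ridge moved with the response genes: 11 of 13 tested were called, all lower (median -2.20 on the log2 scale). The list holds Sp8 itself, and Fgf8, Fgf4 and Fgf9, which are also among the ligands. Fgf4, Fgf9 and Rspo2 reached 1 FPKM in wild type only and so entered the test through wild type. Part of the count thus follows from the genotype and the filter. Their summed level was 490 to 525 FPKM in wild type against 182 to 217 FPKM in the null embryos, and Rspo2 was at 1.63%, Cd44 at 4.73%, Wnt5a at 20.6% and Msx2 at 28.8% of the wild-type mean. The part of ridge cells in the change of the response genes was not tested.

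**Figure D1:**
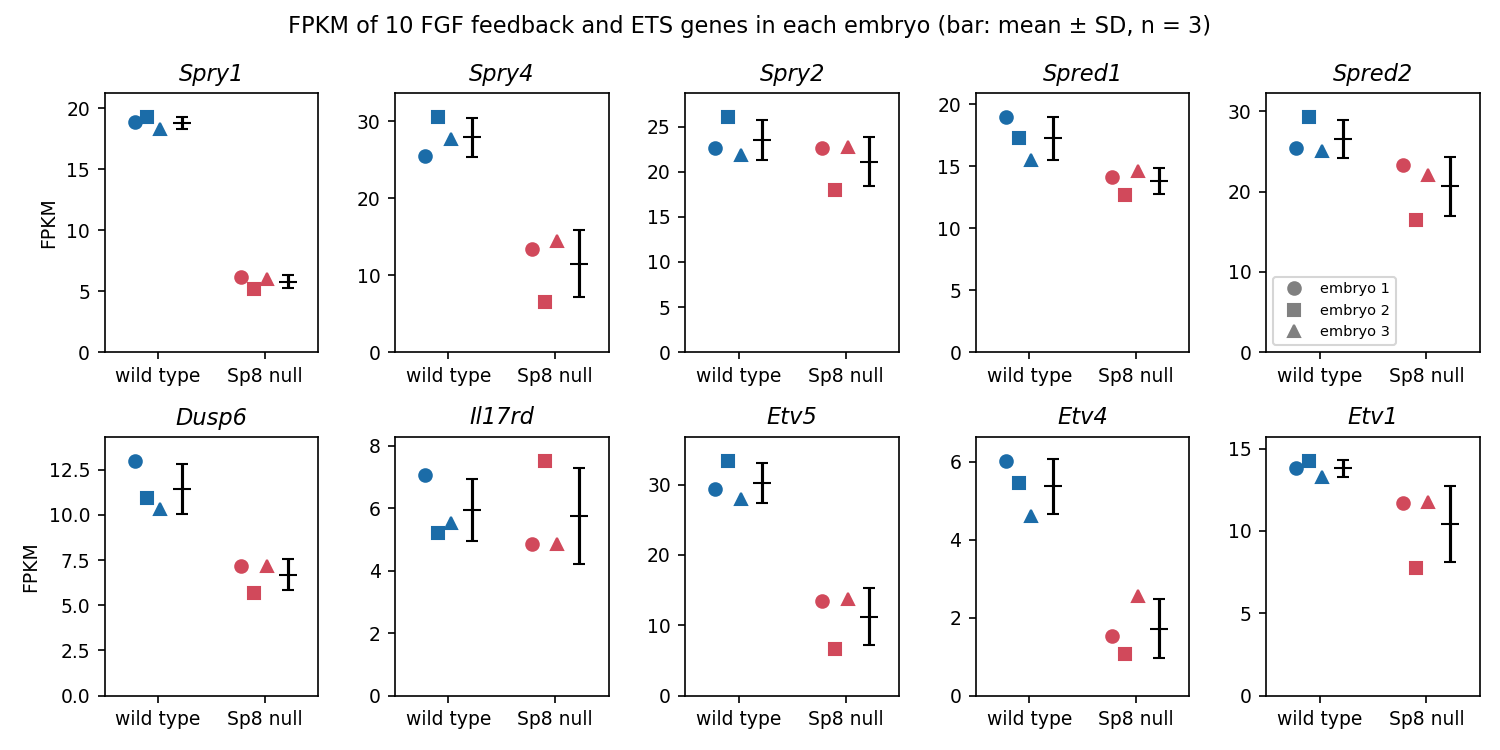
FPKM (vertical axes, from 0) of the 10 genes in each embryo, with wild type in blue, Sp8 null in red, the marker shape giving the embryo number and the black bar the mean ± SD of 3 embryos. The groups stand apart most clearly for Spry1, at 18.3 to 19.3 FPKM in wild type and 5.15 to 6.17 FPKM in Sp8 null, and they overlap for Spry2 and Il17rd.

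Spry1 (ENSMUSG00000037211; GRCm38 chromosome 3, 37639947 to 37644598, plus strand), an inhibitor of receptor tyrosine kinase signalling, was close to the same level in the embryos of each genotype. It was at 18.9, 19.3 and 18.3 FPKM in wild-type embryos 1, 2 and 3, and at 6.17, 5.15 and 6.0 FPKM in Sp8 null embryos 1, 2 and 3. The means were 18.8 ± 0.488 and 5.77 ± 0.543 FPKM (SD, n = 3), a wild-type to null ratio of 3.26. The log2 fold change of FPKM + 1, the scale of all fold changes here, was -1.55 (SE 0.09, 95% interval -1.75 to -1.35; limma adjusted p = 0.000119). Spry1 passed in all 16 alternative analyses, with values between -1.69 and -1.49. It was the one response gene of which this holds. Exons of Spry1 overlap Gm42922, an unverified transcript on the other strand, and the use of strand in the counting was not given in the sources used here. Gm42922 was at no more than 0.0602 FPKM in any library.

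Spry4 (ENSMUSG00000024427; chromosome 18, 38586247 to 38601415, minus strand) was among the highest of the 10 in wild type, with 25.5, 30.6 and 27.8 FPKM. The Sp8 null embryos were at 13.4, 6.48 and 14.5 FPKM. All null values lay below the wild-type values, and embryo 2 was well below the other null embryos. The means were 27.9 ± 2.54 and 11.5 ± 4.36 FPKM (SD, n = 3). The log2 fold change was -1.28 (SE 0.26, 95% interval -1.88 to -0.68, with limma adjusted p = 0.0307). Without Sp8 null embryo 2 the log2 fold change was -0.95 and the call was kept (limma adjusted p = 0.00444). The call was lost in 8 of 16 alternatives, among them leaving out Sp8 null embryo 1 or any 1 wild-type embryo, and its adjusted p ranged from 0.00444 to 0.12. It was also lost with the number that opens the sample name as covariate (limma adjusted p = 0.0519). The same held with the embryo number as a block (limma adjusted p = 0.0535).

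Spry2 (ENSMUSG00000022114; chromosome 14, 105891947 to 105896819, minus strand), the third Sprouty gene, was at 22.7, 26.1 and 21.9 FPKM in wild type and at 22.6, 18.0 and 22.7 FPKM in Sp8 null. Sp8 null embryos 1 and 3 lay within the wild-type range. The log2 fold change was -0.15 (95% interval -0.42 to 0.11, limma adjusted p = 0.46), and it did not pass in any of 16 alternatives. With 1 embryo left out it lay between -0.21 and -0.05, the latter without Sp8 null embryo 2.

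The proportions of the 3 Sprouty genes were compared next, within each library. Their summed level was 70.3 ± 4.89 FPKM in wild type and 38.3 ± 7.58 FPKM in Sp8 null (SD, n = 3). Spry2 made up 33.4% ± 1.12 of that sum in wild type and 55.6% ± 4.44 in Sp8 null. The ratio of Spry1 to Spry2 within a library was 0.833, 0.741 and 0.838 in wild type and 0.273, 0.287 and 0.264 in Sp8 null, with no overlap. The ratio of Spry4 to Spry2 was 1.13, 1.17 and 1.27 against 0.595, 0.36 and 0.637, also with no overlap. Both differences had an exact two-sided permutation p of 0.1, the smallest that 3 embryos against 3 allow, and 0.175 after Benjamini-Hochberg adjustment over the 7 ratios compared. The ratio of Spry1 to Spry4 overlapped between the genotypes, with 0.631 to 0.74 in wild type and 0.414 to 0.796 in Sp8 null (exact permutation p = 0.4).

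**Figure D2:**
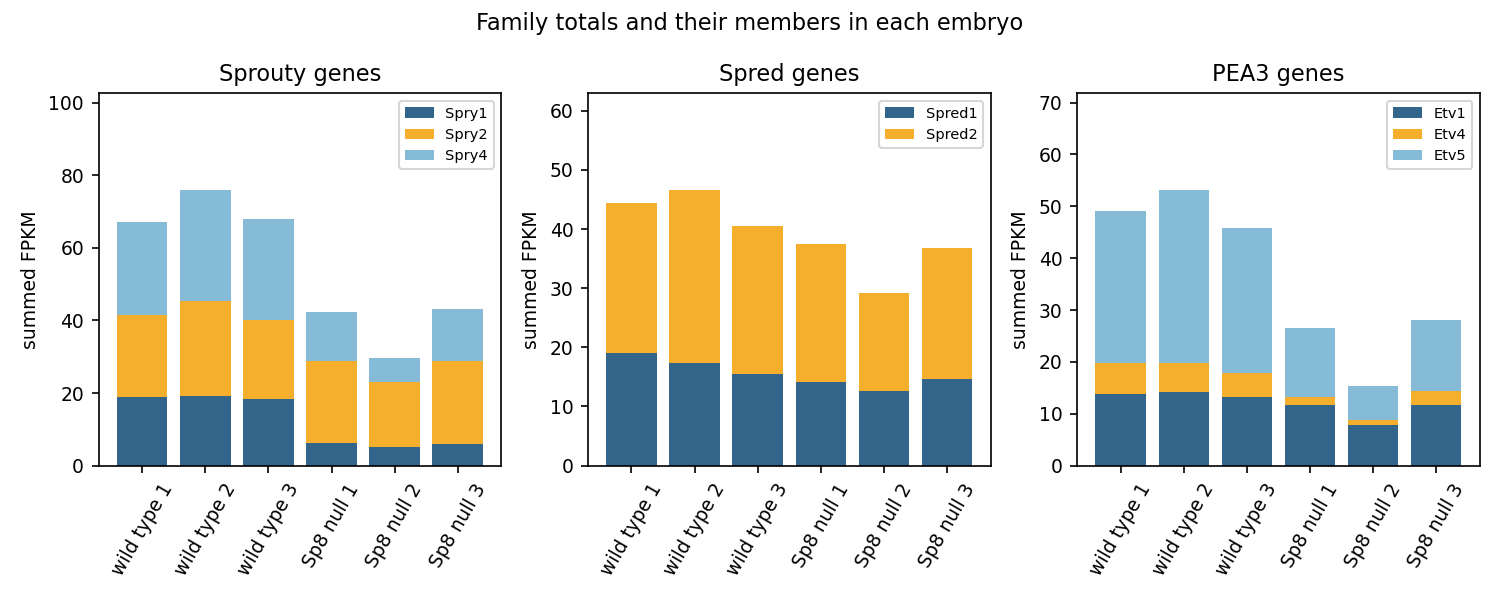
Stacked FPKM (vertical axes, from 0) of the Sprouty, Spred and PEA3 genes in each of the 6 libraries. The Spry2 and Etv1 segments take a larger share of the shorter Sp8 null bars, 55.6% of the Sprouty sum and 45.4% of the PEA3 sum on average, and the Spred proportions stay near those of wild type.

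Spred1 (ENSMUSG00000027351; chromosome 2, 117121374 to 117182279, plus strand) and Spred2 (ENSMUSG00000045671; chromosome 11, 19924375 to 20024026, plus strand) encode membrane-bound inhibitors that act on RAS and RAF. Spred1 was at 19.0, 17.3 and 15.5 FPKM in wild type and at 14.1, 12.7 and 14.7 FPKM in Sp8 null. Spred2 had wild-type values of 25.4, 29.3 and 25.0 FPKM against null values of 23.3, 16.5 and 22.1 FPKM. Every null value lay below every wild-type value for both genes, with 15.5 FPKM the lowest wild-type and 14.7 FPKM the highest null value of Spred1. The log2 fold changes were -0.30 for Spred1 (95% interval -0.52 to -0.07, limma adjusted p = 0.113) and -0.36 for Spred2 (95% interval -0.67 to -0.05, limma adjusted p = 0.156). Unadjusted, the limma p-values were 0.0157 and 0.029, and neither gene was called over all genes in any of 16 alternatives. Without Sp8 null embryo 2 the log2 fold changes were -0.24 for Spred1 and -0.21 for Spred2. The ratio of Spred1 to Spred2 was 0.653 ± 0.0837 in wild type and 0.678 ± 0.0813 in Sp8 null (SD, n = 3; exact permutation p = 0.6).

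Dusp6 (ENSMUSG00000019960; chromosome 10, 99263231 to 99267489, plus strand), the cytoplasmic ERK phosphatase, had the smallest fold change of the 5 called genes. It was at 13.0, 10.9 and 10.3 FPKM in wild type and at 7.20, 5.69 and 7.15 FPKM in Sp8 null. The lowest wild-type embryo was still above the highest null embryo. The means were 11.4 ± 1.40 and 6.68 ± 0.858 FPKM (SD, n = 3; log2 fold change -0.70, SE 0.12, 95% interval -0.98 to -0.42, limma adjusted p = 0.0168). Without wild-type embryo 1 or 2 the limma adjusted p was 0.051 or 0.0605, in the range of 0.0156 to 0.0903 over 16 alternatives, and the log2 fold change stayed between -0.77 and -0.60.

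Il17rd (ENSMUSG00000040717; chromosome 14, 27038941 to 27107286, plus strand) did not follow the other genes. It was at 7.07, 5.21 and 5.53 FPKM in wild type and at 4.87, 7.53 and 4.85 FPKM in Sp8 null, where embryo 2 held the highest value of all 6 libraries. The log2 fold change was -0.05 (95% interval -0.46 to 0.35; limma adjusted p = 0.884). Its sign depended on the library: it was -0.23 without Sp8 null embryo 2 and 0.06 without wild-type embryo 1, and it was 0.01 with median-of-ratios scaling.

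Among the PEA3 factors, Etv5 and Etv4 fell and Etv1 did not pass. Etv5 (ENSMUSG00000013089; chromosome 16, 22381309 to 22439719, minus strand) had the highest wild-type mean of the 10 genes, with 29.4, 33.4 and 27.9 FPKM. In Sp8 null it was at 13.4, 6.58 and 13.8 FPKM, with embryo 2 again the lowest. The means were 30.2 ± 2.87 and 11.2 ± 4.05 FPKM (SD, n = 3; log2 fold change -1.41 with SE 0.24 and interval -1.98 to -0.84, limma adjusted p = 0.0173). Without Sp8 null embryo 2 the log2 fold change was -1.09 (limma adjusted p = 0.00245). The call was lost, among others, without wild-type embryo 1 or 2 (limma adjusted p = 0.0517 and 0.0721, the range over 16 alternatives being 0.00245 to 0.0903).

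Etv4 (ENSMUSG00000017724; chromosome 11, 101769742 to 101785371, minus strand) had the lowest mean level of the 10 in both genotypes. It was at 6.03, 5.46 and 4.62 FPKM in wild type and at 1.53, 1.07 and 2.56 FPKM in Sp8 null. Here Sp8 null embryo 3, at 47.6% of the wild-type mean, stood above the other null embryos at 28.5% and 19.9%. The means were 5.37 ± 0.711 and 1.72 ± 0.762 FPKM (SD, n = 3; log2 fold change -1.26 with SE 0.20 and interval -1.73 to -0.79, limma adjusted p = 0.0128). With a pseudocount of 0.1 in place of 1 the log2 fold change was -1.66. The call was lost, among others, without Sp8 null embryo 1 or wild-type embryo 2 (limma adjusted p = 0.0533 and 0.0545, the range over 15 alternatives being 0.00567 to 0.126).

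Etv1 (ENSMUSG00000004151; chromosome 12, 38779380 to 38870484, plus strand) was at 13.8, 14.3 and 13.3 FPKM in wild type and at 11.7, 7.75 and 11.8 FPKM in Sp8 null. The groups did not overlap, but the log2 fold change of -0.40 (95% interval -0.74 to -0.05) did not pass (limma adjusted p = 0.16). Without Sp8 null embryo 2 it was -0.22. The ratio of Etv5 to Etv1 was 2.13, 2.34 and 2.10 in wild type and 1.15, 0.849 and 1.17 in Sp8 null. The ratio of Etv4 to Etv1 was 0.437, 0.382 and 0.347 against 0.131, 0.138 and 0.217. Neither ratio overlapped between the genotypes (exact permutation p = 0.1 for each, adjusted p = 0.175 over 7 ratios). The ratio of Etv4 to Etv5 was 0.178 ± 0.0237 in wild type and 0.154 ± 0.0364 in Sp8 null (SD, n = 3; exact permutation p = 0.4).

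**Figure D3:**
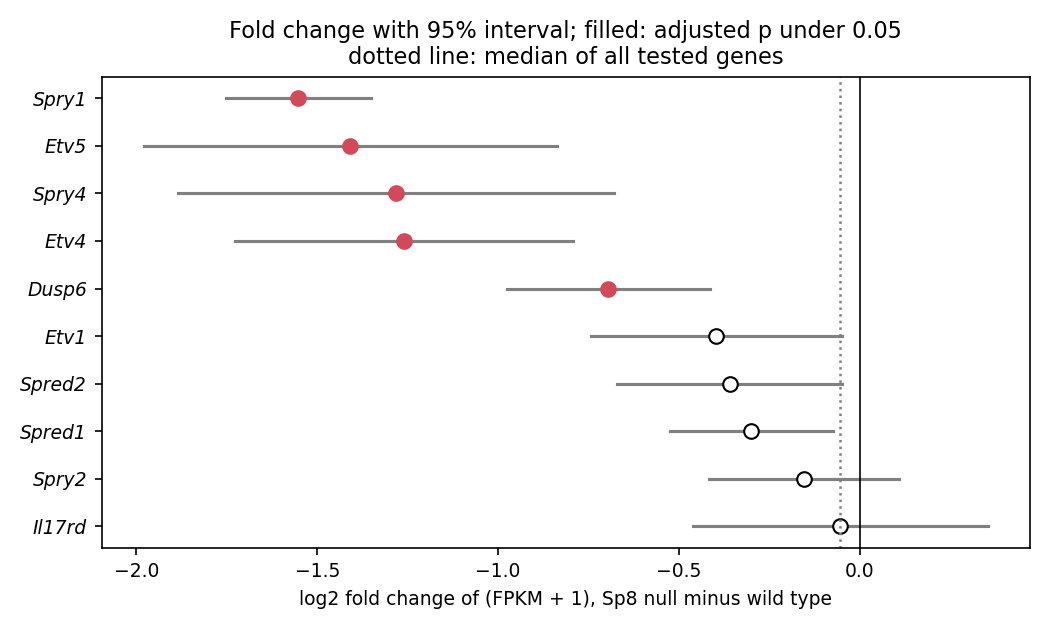
Log2 fold change of FPKM + 1 (horizontal axis, Sp8 null minus wild type) of each gene, with its 95% interval from limma as a line. Filled points passed an adjusted p of 0.05, from -1.55 for Spry1 to -0.70 for Dusp6, open points did not, and the dotted line at -0.06 is the median of all tested genes.

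The order of levels per length changed with the genotype. In wild type it ran from Etv5 through Spry4, Spred2, Spry2, Spry1, Spred1, Etv1, Dusp6 and Il17rd to Etv4. Neighbours overlapped between libraries from Etv5 down to Spry2, for Spry1 and Spred1, and for Il17rd and Etv4. In Sp8 null Spry2 (21.1 ± 2.71 FPKM) and Spred2 (20.7 ± 3.63 FPKM) came first, overlapping with each other and with no other gene. Spred1, Spry4, Etv5 and Etv1 followed, each overlapping with the next. Dusp6, Spry1 and Il17rd came after them between 4.85 and 7.53 FPKM, and Etv4 was last.

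Sp8 null embryo 2 had the lowest value of its group in 9 of the 10 genes and the highest in Il17rd. Its response genes deviated from the group mean by a median of -0.25 on the log2 scale, while the median over all tested genes was -0.01. The same library had the highest sum of limb mesenchyme markers and the lowest of ectoderm markers, 746 FPKM against 874 to 977 FPKM in the other 5. Cldn6 was the largest ectoderm marker, at 257 FPKM in that library against 299 to 385 FPKM in the other 5. Krt8, Krt14 and Tfap2a were not lowest in that library, and the other ectoderm markers were. Prrx1, a mesenchymal homeobox gene, was at 53.3 FPKM in Sp8 null embryo 2. It was at 13.6 and 11.95 FPKM in the other Sp8 null embryos and 16.5, 3.92 and 9.93 FPKM in wild type. Of the 12 mesenchyme markers, all but Pdgfra and Col1a2 were highest in Sp8 null embryo 2. Pdgfra was at 19.5 FPKM there against 23.8, 19.8 and 21.4 FPKM in wild type. Col1a2 was at 15.3 FPKM there against 16.7 FPKM in wild-type embryo 3. All 12 mesenchyme markers reached 1 FPKM in at least 1 library, and their sums were 44.9 to 87.1 FPKM in wild type against 57.9 to 197 FPKM in the null embryos. The part of either marker sum in the low values of that library was not tested. Without it the same 5 genes were called, the median log2 fold change of the 10 genes was -0.42, and 2.61% of all tested genes were called lower.

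**Figure D4:**
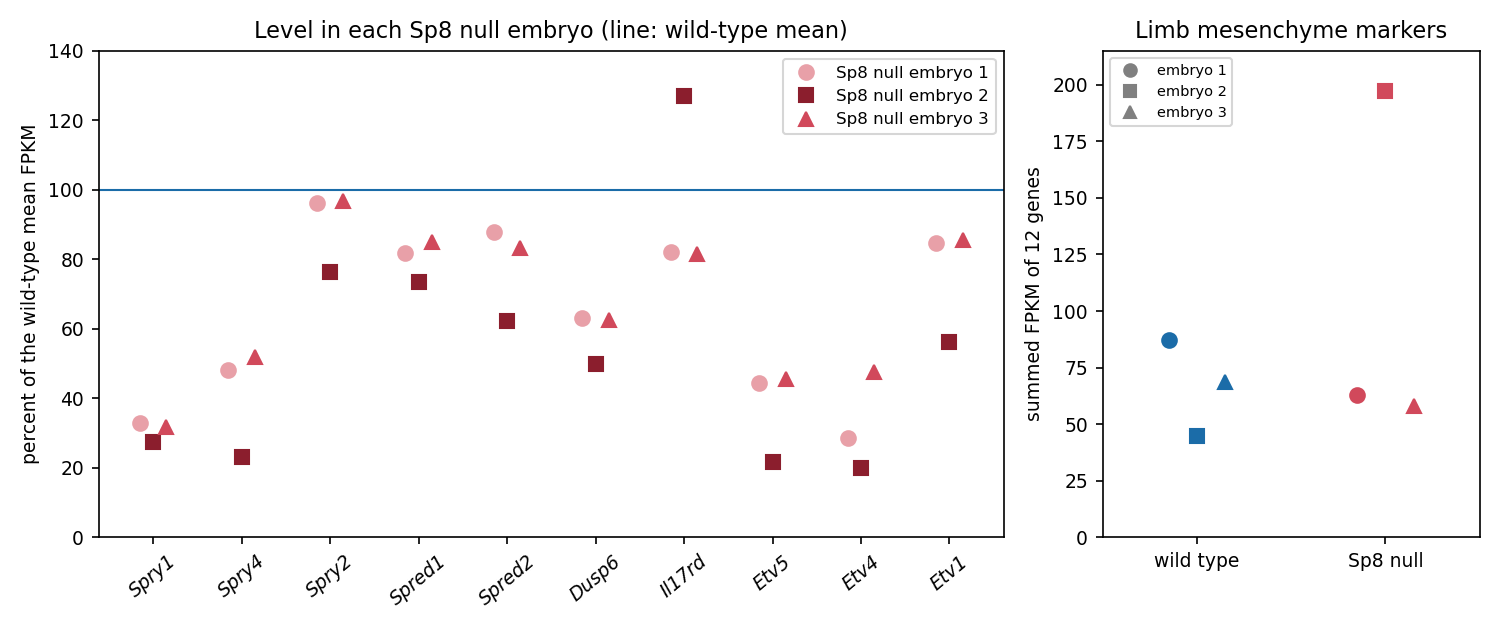
Left, level of each gene in the 3 Sp8 null embryos as a percent of the wild-type mean FPKM (blue line at 100). Right, summed FPKM of the 12 limb mesenchyme markers in each library. Embryo 2 (dark squares) is lowest for 9 genes and highest for Il17rd, and it has the highest mesenchyme sum, 197 FPKM.

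The calls other than Spry1 depended on the libraries and on the filter. With no filter on low values Spry1 alone was called, where 0.958% of tested genes were called lower. Without wild-type embryo 2 Spry1 alone was called, with 1.92% of all tested genes called lower, and without wild-type embryo 1 Spry1 and Etv4 were, with 2.41% called lower. Among the 2 embryos of each genotype whose sample names start with 5, a number of unstated meaning, Spry1 alone was called, with 1.31% of all tested genes called lower (log2 fold changes of -1.49 for Spry4, -1.58 for Etv5, -1.15 for Etv4 and -0.66 for Dusp6). The names starting with 4 hold 1 embryo per genotype, which leaves nothing to test.

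The authors' deposited table gave its own comparison of the same genes, with means on a scale of read counts. In the authors' deposited table the means of the 10 genes lay between 463.96 and 4998.24 in wild type. Per the authors' deposited table, Spry1 had a fold change of -3.07, against -1.93 for Etv4, -1.87 for Etv5, -1.73 for Spry4 and -1.63 for Dusp6. The ratio of the wild-type to the null mean in the authors' deposited table was 3.19 for Spry1, 3.11 for Etv4, 2.63 for Etv5, 2.39 for Spry4 and 1.67 for Dusp6, so the listed fold changes of Etv4, Etv5 and Spry4 are smaller than the ratios of the listed means, and how they were made is not stated. The other fold changes of the authors' deposited table were -1.27 for Etv1, -1.22 for both Spred1 and Spred2, -1.09 for Spry2 and -1 for Il17rd. After Benjamini-Hochberg adjustment of the p-values in the authors' deposited table over the tested genes, 6 of the 10 were under 0.05, the 5 called here and Spred1 (0.0011), against 13.9% of tested genes called lower that way. Unadjusted, 7 of the 10 had p under 0.05 in the authors' deposited table, where 20.0% of tested genes were lower by that rule. Adjusted in this way, Etv1 stood at 0.119, Spred2 at 0.176 and Spry2 at 0.384 in the authors' deposited table.

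The start regions of the genes were read for 2 kinds of short motif, since ETS factors bind around GGAA and Sp factors bind GC-rich boxes. RefSeq start regions of GRCm38.p6 were read for 8 of the 10 genes, in 10 windows of 250 bases before the annotated start. Etv1 and Etv5 have 2 windows each. No start region was found for Etv4, and Spry4 was left out of this step, so its start region was not read. The motifs were CGGAAG and AGGAAG for ETS factors, GGGCGG for the GC box and GGGTGTG for the CACCC box, on either strand. CGGAAG was in 3 of 10 windows against 13.6% of 32851 windows of the same length, AGGAAG in 3 of 10 against 29.5%, GGGCGG in 5 of 10 against 32.7%, and GGGTGTG in 0 of 10 against 6.93%. The windows printed are those of Dusp6 (chr10:99262981-99263230, plus strand), Spry1 (chr3:37639697-37639946, plus strand), Etv5 (chr16:22439720-22439820, minus strand, the part outside its annotated exon) and Spred1 (chr2:117120821-117121070, plus strand). The first 3 genes fell, and Spred1 did not pass and is shown beside them. Capitals mark the motifs on either strand.
Dusp6: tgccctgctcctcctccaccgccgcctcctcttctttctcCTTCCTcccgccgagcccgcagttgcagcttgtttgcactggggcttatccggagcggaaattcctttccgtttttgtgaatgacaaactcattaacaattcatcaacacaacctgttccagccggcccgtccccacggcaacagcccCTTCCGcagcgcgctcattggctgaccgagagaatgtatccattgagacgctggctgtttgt
Spry1: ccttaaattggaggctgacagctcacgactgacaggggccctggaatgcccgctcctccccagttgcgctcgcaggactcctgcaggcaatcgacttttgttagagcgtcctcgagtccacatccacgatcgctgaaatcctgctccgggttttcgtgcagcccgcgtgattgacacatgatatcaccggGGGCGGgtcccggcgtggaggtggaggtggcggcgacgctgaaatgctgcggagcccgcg
Etv5: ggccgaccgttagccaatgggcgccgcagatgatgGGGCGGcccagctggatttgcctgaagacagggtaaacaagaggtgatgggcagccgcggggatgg
Spred1: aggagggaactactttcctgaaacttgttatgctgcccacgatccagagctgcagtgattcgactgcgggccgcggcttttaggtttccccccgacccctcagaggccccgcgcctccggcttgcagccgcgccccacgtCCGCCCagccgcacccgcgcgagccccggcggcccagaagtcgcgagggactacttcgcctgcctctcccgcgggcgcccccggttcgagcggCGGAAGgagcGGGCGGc
Dusp6 held both ETS motifs and no GC box, Spry1 and Etv5 held GC boxes and no ETS motif, and Spred1 held both kinds. The full length of the printed Etv5 window held 3 GC boxes, and the other Etv5 window held none of the 4 motifs. The Spry1 window lies in an exon of Gm42922. Spred2 held 3 ETS motifs and 1 GC box, one ETS motif overlapping the box, and Spry2 held none of the 4 motifs. Matches of this kind are letters only and say nothing of binding.

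The rest of the pathway was then counted from lists of other FGF and ERK genes. Of 98 such genes 69 were tested, 9 were called lower and none higher in limma, where 204 of all 12133 tested genes were called higher and 5.15% lower. The called genes were 3 ligands, 1 ERK phosphatase, 1 ETS factor and 4 ERK-induced genes. The median log2 fold change of the 69 genes was -0.07, close to the -0.06 of all tested genes.

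Among the ligands, Fgf8, Fgf4 and Fgf9 fell (3 of 4 tested). Fgf4 and Fgf9 reached 1 FPKM in wild type only. They thus entered the test through their wild-type levels, so being tested already favoured a lower null level. Fgf4 was at 8.90, 9.73 and 12.1 FPKM in wild type and at no more than 0.0589 FPKM in Sp8 null. Fgf9 was at 10.7 ± 2.41 FPKM in wild type against 0.846 ± 0.145 FPKM in Sp8 null (SD, n = 3; log2 fold change -2.64, limma adjusted p = 0.000164). Fgf8 and Fgf4 had log2 fold changes of -4.38 and -3.43 (limma adjusted p = 2.21e-05 and 1.5e-05). None of 6 tested receptors and binding partners was called. Fgfr1 was at 7.20 ± 2.45 FPKM in wild type against 8.75 ± 3.35 FPKM in Sp8 null (SD, n = 3; limma adjusted p = 0.65). Fgfr3 was at 1.31 ± 0.303 FPKM in wild type against 1.56 ± 0.238 FPKM in Sp8 null (SD, n = 3; limma adjusted p = 0.57).

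No adaptor or RAS-ERK cascade gene was called among 22 tested, whose log2 fold changes lay between -0.32 and 0.12 with a median of -0.04. At an unadjusted limma p under 0.05 there were 2 of the 22, where 24.0% of all tested genes lay under it. The smallest p was that of Nras, a RAS GTPase, at 153 ± 12.1 FPKM in wild type and 127 ± 7.13 FPKM in Sp8 null (SD, n = 3; log2 fold change -0.27, limma adjusted p = 0.0919).

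Of 12 other feedback inhibitors tested, Dusp4 was called, a share of 8.33% beside 6.83% of all tested genes. Dusp4, a nuclear MAP kinase phosphatase, was at 5.23, 5.17 and 5.58 FPKM in wild type and at 3.07, 2.41 and 2.87 FPKM in Sp8 null. All null values were below all wild-type values (limma log2 fold change -0.75 and adjusted p = 0.00691). The list had a median of -0.03, with 6 members lower and 6 higher in mean.

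Of 13 other ETS family genes tested, Etv3 was called, a share of 7.69% beside 6.83% of all tested genes. Etv3, a transcriptional repressor, was at 7.20 ± 0.687 FPKM in wild type and 4.55 ± 0.596 FPKM in Sp8 null (SD, n = 3; log2 fold change -0.57, limma adjusted p = 0.0289). Its limma adjusted p was 0.0311 to 0.116 with 1 embryo left out, and it passed in that set only without Sp8 null embryo 3. The median of the list was -0.07.

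Of 12 other ERK-induced genes tested 4 were called, all lower: Ccnd1, Myc, Maff and Jun. Ccnd1, a G1 cyclin, was at 54.6, 48.7 and 49.5 FPKM in wild type and at 32.5, 25.4 and 35.5 FPKM in Sp8 null (log2 fold change -0.70, limma adjusted p = 0.0173). Myc, a growth regulator, was at 4.28 ± 0.218 FPKM in wild type against 1.99 ± 0.753 FPKM in Sp8 null (SD, n = 3; log2 fold change -0.85, limma adjusted p = 0.0314). Maff and Jun, both leucine zipper factors, were lower by log2 fold changes of -0.75 and -0.53 (limma adjusted p = 0.0317 and 0.0404). Maff reached 1 FPKM in wild type only, with 0.339 to 0.586 FPKM in Sp8 null, so it too entered the test through wild type. With 1 embryo left out the limma adjusted p reached 0.0593 for Ccnd1, 0.105 for Myc, 0.104 for Maff and 0.144 for Jun.

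**Figure D5:**
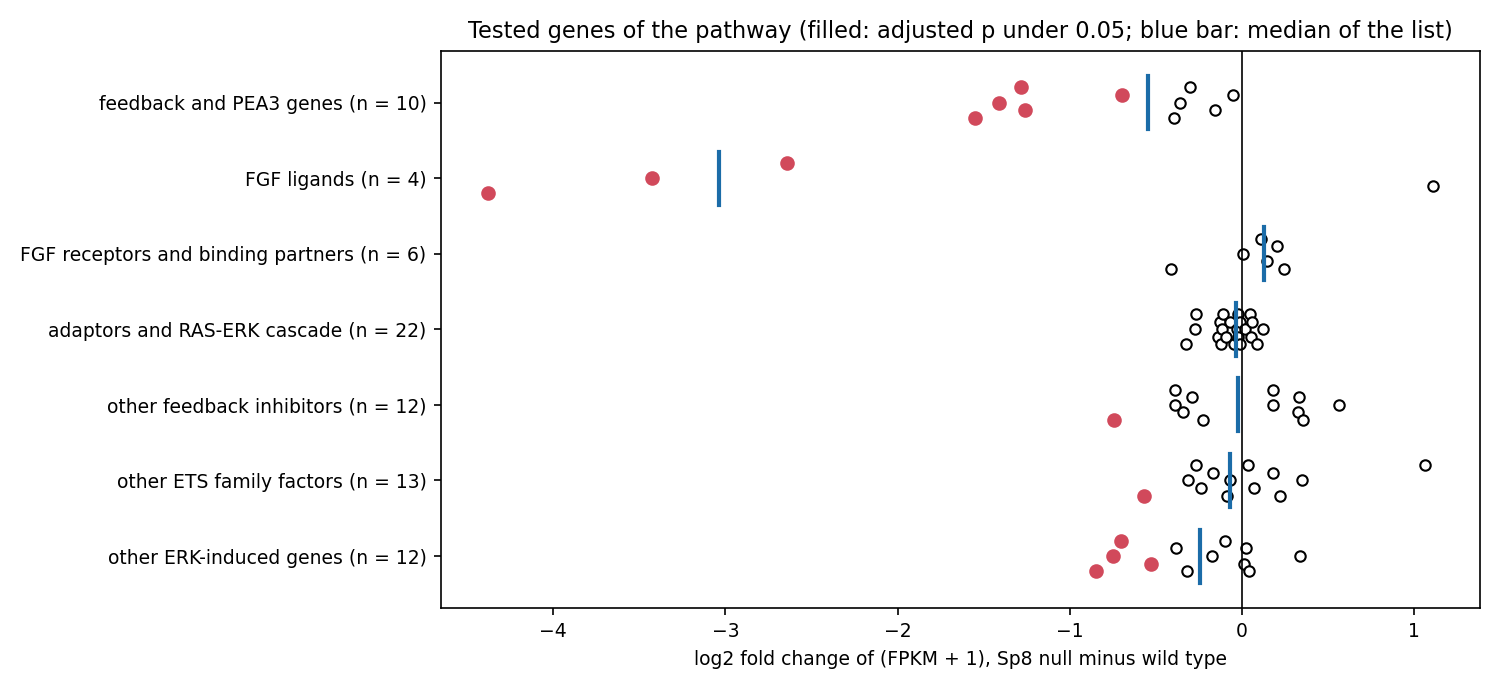
Log2 fold change of FPKM + 1 (horizontal axis, Sp8 null minus wild type) of every tested gene of the 10 response genes and of 6 other lists, one point a gene. Filled points passed an adjusted p of 0.05 and the blue bar is the median of each list, at -0.55 for the response genes and -0.04 for the cascade.

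The genes whose pattern over the 6 libraries was nearest to the mean pattern of the 10 response genes were Srm, Klhl13, Pcsk5, Ccnd1 and N4bp3. Likeness was the root mean square difference of log2(FPKM + 1), centred on each gene's mean, and lay between 0.0428 and 0.0673 for these 5. Srm, which makes spermidine, was at 26.5, 24.0 and 22.4 FPKM in wild type and at 15.3, 11.7 and 16.0 FPKM in Sp8 null, with embryo 2 the lowest. Klhl13 had wild-type values of 45.2, 45.8 and 44.3 FPKM against null values of 27.9, 23.9 and 30.0 FPKM, again with embryo 2 the lowest. All 5 were called in limma (adjusted p of 0.00539 to 0.0173). They were picked for a pattern that is itself lower in Sp8 null, so these calls are no independent test.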

How the data were processed

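RNA was measured in 6 libraries of polyadenylated RNA from E10.5 forelimb bud ectoderm, freed with trypsin and forceps. Libraries were made with TruSeq v2 reagents, per the labels' protocols. The authors deposited FPKM for 49452 genes per library, with Ensembl 87 gene models per the file headers. FastQC, SAMtools, TopHat2, Cufflinks, DESeq2 and GRCm38 are named in the submitters' processing notes, without parameters. The deposited table also held group means (a signal whose size is like that of read counts), a fold change written as a signed score, and a p-value. Per the file headers, neither the test behind that p-value nor an adjustment is stated. Where the table gave no symbol, the GENCODE name was used (28503 of 28757 such genes).

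FPKM was analysed as log2(FPKM + 1) for the 12133 genes that reached 1 FPKM in 3 or more libraries, with limma 3.58.1 in R 4.3.3 (genotype as the only term, mean-variance trend, two-sided p-values, Benjamini-Hochberg over all tested genes). The procedure was tested on simulated data. Ratios between genes were compared with exact permutation tests in scipy 1.17.1. Relative depth came from the commonest ratio of values under 0.1 FPKM between libraries. Whole reads were not recovered, so no counting interval is given. Coordinates are from GENCODE M21 on GRCm38, and start regions from RefSeq. Beside the 10 genes, 98 further pathway genes in 6 lists and markers of 6 cell groups were listed. Named were all 10 response genes, up to 5 called genes of each other list or else that with the smallest p, Fgf4, Fgf8, Fgf9 and Fgfr1 to Fgfr3, and the 5 nearest in pattern. The genes and lists were chosen with earlier results of these data known. The correlation of deviations from the group means was -0.16, -0.14 and -0.07 for same-numbered embryos. With 3 embryos per genotype these values cannot settle whether the numbers pair embryos, and the main fit did not pair them. The alternatives were another pseudocount, filters, scalings and covariates, and each library left out.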

Additional observations from a re-analysis of the deposited data

How the results depend on the processing

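Of 159 values of the 10 response genes under alternatives, 134 kept both direction and call, 20 kept their direction but no longer passed, and 5 changed sign, all 5 of Il17rd. Il17rd stood at 0.0086 on the log2 scale with median-of-ratios scaling and at 0.15 in the sample names starting with 5, and between -0.23 and 0.0604 with one embryo left out. Its values without Sp8 null embryo 1, without Sp8 null embryo 3 and without wild-type embryo 1 were 0.04, 0.04 and 0.0604. Fgfr1 changed sign without Sp8 null embryo 2 (-0.0215), in a range of -0.0215 to 0.46 with one embryo left out. The number of response genes called, 5, was 1 with no filter on low values and 1 in the sample names starting with 5, and 1 to 5 with one embryo left out, fits with fewer samples. With a mean of at least 5 FPKM required, Etv4 was not tested and 4 were called. The number of calls over all genes, 829, was 342 with no filter, 545 with the number that opens the sample name as covariate, 251 in the sample names starting with 5, and 316 to 642 with one embryo left out. The number of other pathway genes called, 9, was 4 with no filter, 5 with a mean of at least 5 FPKM, 4 in the sample names starting with 5, and 4 to 6 with one embryo left out. With the number that opens the sample name as covariate, 4 response genes (Spry4 lost) and 7 other pathway genes (Maff and Jun lost) were called. With the embryo number as a replicate block, 328 genes over all, 4 response genes (Spry4 lost) and 5 other pathway genes were called; the numbers are not stated to pair embryos. With no filter 27766 genes entered the adjustment, and unadjusted limma p-values changed as well, for Spry4 from 0.00133 to 0.00469. The cause of the changes was not tested.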

Other observations

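Fli1, an ETS factor, was at 5.21, 2.35 and 2.27 FPKM in wild type and at 6.25, 12.7 and 5.25 FPKM in Sp8 null, and was not called (limma adjusted p = 0.115). It was named after its values were seen. Fgf18 was at 7.58 FPKM in Sp8 null embryo 2, the library with the highest mesenchyme markers, and at 0.0662 to 1.88 FPKM in the others, also named after its values were seen. Egr1 and Fos, immediate early genes, were under the filter, at no more than 0.784 and 0.626 FPKM in any library. Egr3 was at 0, 0 and 0.0188 FPKM in Sp8 null and at 0.0769, 0.129 and 0.186 FPKM in wild type, and was not tested. Of the lists for other cells, endothelial markers summed to 2.57 to 4.58 FPKM in Sp8 null and 2.23 to 3.23 FPKM in wild type, most of it Egfl7, and macrophage markers to 2.96 to 5.39 and 1.69 to 2.96 FPKM. Erythroid markers summed to 62.6 to 163 FPKM in Sp8 null and 11.7 to 427 FPKM in wild type, the highest in wild-type embryo 1. In the ectoderm list 12 were tested, with Epcam called lower and Tfap2a higher. The limb mesenchyme list had 1 of 10 tested members called, Lmx1b, which was higher. Over all tested genes 6.83% were called, 5.15% lower and 1.68% higher.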
